A study of Mus musculus with 51 samples.

Results

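The comparison asked whether chronic intermittent ethanol vapor (CIE) changed genes differently in microglia and in astrocytes of the same mice. It used 34 of the 51 libraries of the series, 17 of microglia and 17 of astrocytes. They were chosen by the cell type and treatment in the sample labels, and the libraries of total homogenate were left out. For every gene the response (CIE minus control, on the log2 scale) in astrocytes was subtracted from the response in microglia. A value above 0 therefore means a larger rise, or a smaller fall, in microglia, and a value below 0 the reverse.

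The libraries came from the prefrontal cortex of adult male C57BL/6J mice, 8 control and 9 CIE, and each mouse gave 1 library of each cell type. CIE mice breathed ethanol vapor at 15 to 20 mg/L for 16 h per day in 4 weekly cycles, after ethanol at 1.6 g/kg, and control mice breathed air. Both groups received pyrazole at 1 mmol/kg, an inhibitor of alcohol dehydrogenase that slows ethanol clearance. Astrocytes were held on beads against ACSA2, a surface antigen of astrocytes, and microglia on beads against Cd11b, an integrin of myeloid cells, from the cells that the first beads left. Both fractions are enrichments rather than pure cells, and other Cd11b+ cells such as neutrophils and monocytes can be held with microglia.

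Astrocytes supply neurons with metabolites, clear glutamate and potassium, make cholesterol-rich lipoproteins and shape the extracellular matrix. Microglia are the resident macrophages of the brain, which survey the tissue, take up debris and present antigen when activated. Ethanol reaches both cell types, and it also acts on them through stress hormones and cytokines. 

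Of 12775 genes tested, 44 (0.344%) had a response that differed between the cell types at an adjusted p under 0.05 by the quasi-likelihood test of edgeR with Benjamini-Hochberg adjustment. The difference was above 0 for 33 genes (0.258%) and below 0 for 11 (0.0861%). At an unadjusted p under 0.05 there were 1439 genes, where 638.75 would be expected if no gene differed. With the mouse as a replicate block 38 genes passed, and 24 of the 44 were among them. Exact permutation of the within-mouse differences over 24310 splits of the mice passed 0 genes after adjustment over all genes, with a smallest adjusted p of 0.0779, and 1517 genes at an unadjusted p under 0.05. The smallest p these splits can give is 4.11e-05. A single gene at that p could not pass after adjustment over 12775 genes.

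The number of genes called changed when single mice were left out. Without mouse 05, a control, 1 gene passed, and without mouse 36 it was 2. Leaving out mouse 20 gave 8 genes, mouse 24 gave 10, mouse 23 gave 12 and mouse 22 gave 15. Mice 37, 39 and 41 each gave 16 when left out, mouse 35 gave 21, mice 03 and 19 each gave 22, and mice 25 and 26 each gave 23. Leaving out mouse 40 gave 45 genes, 34 of the 44 among them, and mouse 06 gave 62, with 41. Without mouse 08, a CIE mouse, it rose to 108. Mmp14 was the only one of the 44 genes that passed in each of the 17 fits without 1 mouse, and 11 genes passed in at least 12 of them. The sign of each of the 44 differences stayed the same in all 17 fits, and the median of their sizes over the sizes with all mice was 0.98 to 1.04.

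Most of the 44 genes moved in opposite directions. Of the 33 genes above 0, 29 were up in microglia and down in astrocytes in the fitted group means. For 4 (Mxd1, Ankrd28, Ddit4 and G0s2) both fitted responses were above 0, with the larger in microglia. All 4 passed when microglia were fitted on their own, but in astrocytes only Ddit4 did. All 11 genes below 0 were down in microglia and up in astrocytes. Of the 44 genes, 30 passed the test inside at least 1 cell type. When each cell type was fitted on its own, 373 of 10761 genes (3.47%) passed in microglia and 661 of 12878 (5.13%) in astrocytes, and 18 and 13 of the 44 were among them. Of the 44, 6 (Gpr19, Chil1, Zfhx2os, Aqp9, Rcor2 and 2900092D14Rik) passed the filter on low counts through astrocytes only and were not tested in microglia alone. Their microglia counts were low, at a median of 0 to 4.5 reads per control library and a highest of 19, so their differences rest on few counts and depend on the prior count. Of the 38 tested in both cell types, Ddit4 alone passed in both, and none passed in both with opposite signs.

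**Figure D1:**
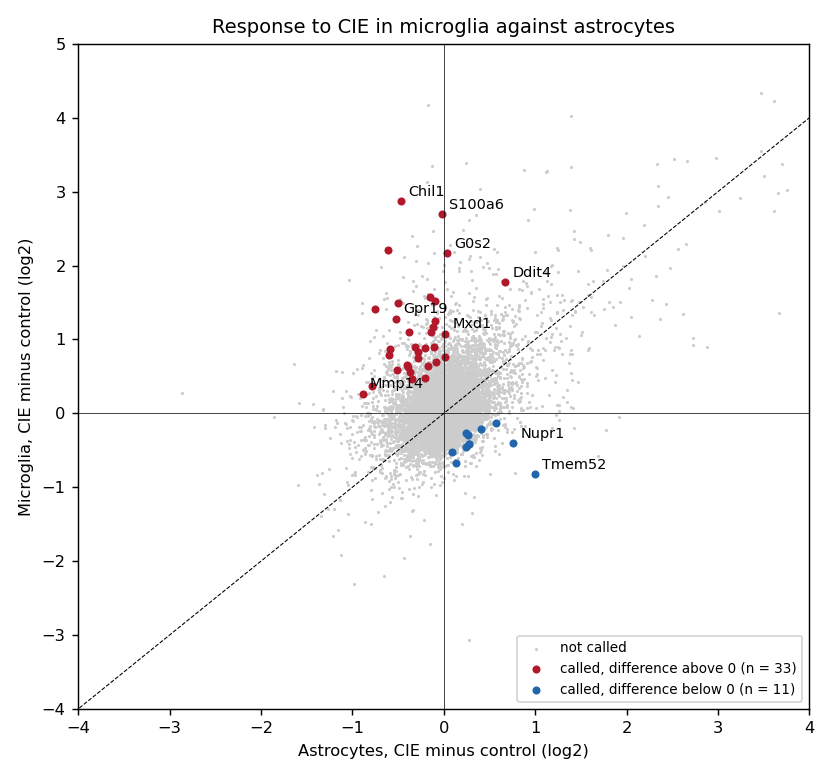
Response of each gene to CIE in astrocytes (x axis) and in microglia (y axis), both as CIE minus control on the log2 scale, for the 12775 genes tested. Points on the dashed line have equal responses; the 33 red genes lie above it and the 11 blue genes below it, and most coloured points fall in the quadrants where the signs differ.

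The direction of the difference followed the level of a gene in control mice. Of the 33 genes above 0, 32 had a lower mean CPM (counts scaled to library size by TMM) in control microglia than in control astrocytes, and 20 were under 0.25 of the astrocyte level. All 11 genes below 0 were higher in control microglia. The same order ran through all genes tested. The median difference was 0.47 on the log2 scale over the 1619 genes with a microglia level under 0.25 of the astrocyte level, 0.08 over the 4851 genes between 0.25 and 1, -0.07 over the 5328 genes between 1 and 4, and -0.25 over the 977 genes above 4. Both axes of this comparison used the same control libraries, so it is a description with no test. Genes that passed the filter on low counts through astrocytes only are low in microglia by that filter. They include 6 of the genes above 0 (Gpr19, Chil1, Zfhx2os, Aqp9, Rcor2 and 2900092D14Rik). With the filter applied to each cell type, 10647 genes passed in both.

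**Figure D2:**
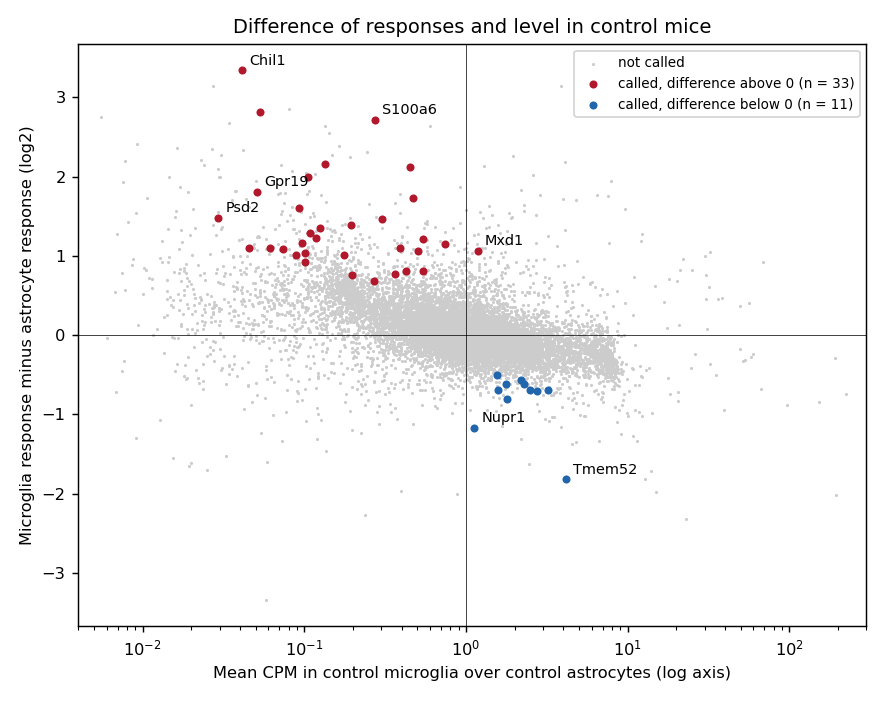
Difference of responses (microglia minus astrocytes, log2, y axis) against the ratio of the mean CPM in control microglia to that in control astrocytes (x axis, log scale) for the genes tested. Genes with a ratio of 0 or with a ratio beyond the axis are not shown. The 33 red genes lie left of a ratio of 1 apart from Mxd1 at 1.18, and the 11 blue genes lie between 1.12 and 4.16.

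Markers of microglia, oligodendrocytes and their precursors lay on the same sides without passing the test. All 15 microglia markers lay below 0 (median difference -0.42), and all 12 oligodendrocyte markers (median 0.53) and all 10 markers of their precursors (median 0.56) lay above 0, with 0 of each called. The summed level of the microglia markers was 31897 to 43884 CPM (median 33663) in control microglia and 23856 to 32979 (median 28316) in CIE microglia. These groups overlapped in part (response -0.32, exact permutation p = 0.000658). In astrocytes the same sum was 1786 to 7910 (median 4516) in control and 3129 to 7804 (median 4910) in CIE mice. The within-mouse difference changed by -0.55 on the log2 scale (exact permutation p = 0.0879). Oligodendrocyte markers summed to 2312 to 7757 CPM (median 4621) in control microglia and 2604 to 10511 (median 7951) in CIE microglia, and to medians of 22511 and 23819 in control and CIE astrocytes (change of the within-mouse difference 0.46, exact permutation p = 0.150). Astrocyte markers summed to medians of 631 and 800 CPM in control and CIE microglia, and of 22173 and 19176 in control and CIE astrocytes (change 0.33, exact permutation p = 0.246). Of the 15 astrocyte markers, 12 lay above 0 (median difference 0.13), with 0 called. Their control microglia levels were 0.01 to 0.08 of the astrocyte levels. All genes under 0.25 had a larger median difference, 0.47. Neutrophil and neuron markers did not follow the order by control level. Neutrophil markers were higher in control microglia than in control astrocytes, and 6 of 12 lay above 0 (median difference 0.00). Neuron markers summed to medians of 323 and 205 CPM in control microglia and control astrocytes, and 10 of 12 lay above 0 (median difference 0.60). Endothelial and mural markers (11 of 15 above 0) and border macrophage and monocyte markers (4 of 16) had members on both sides. Every marker of these lists had counts in both cell types. In bulk libraries fewer cells of a type and less RNA per cell cannot be told apart.

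With the mean level of the oligodendrocyte markers of each library as a covariate, 0 genes passed with edgeR, 1175 had an unadjusted p under 0.05, and all 44 kept their sign at a median of 0.85 of their size. With the astrocyte markers 22 genes passed, with the precursor markers 13, and with the neutrophil markers 1. Counts assigned to genes ranged from 571878 to 6026453 in microglia and from 2082289 to 10041788 in astrocytes. The share of reads outside annotated genes had medians of 24.9% and 34.8% in control and CIE microglia and of 28.5% and 18.3% in control and CIE astrocytes (exact permutation of the within-mouse difference p = 0.0920, adjusted over 4 library measures p = 0.368). With that share as a covariate 74 genes passed, 30 of the 44 among them.

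Mmp14, a membrane-anchored matrix metalloproteinase, had the smallest p. It fell in astrocytes and was a little higher in microglia. In control astrocytes it had 45.0 to 84.4 CPM (median 62.2), and in CIE astrocytes 25.9 to 42.9 (median 34.3). No CIE astrocyte library reached the lowest control. In microglia it had 31.8 to 64.8 CPM (median 43.5) in control and 38.4 to 65.6 (median 57.7) in CIE mice, and these groups overlapped. The astrocyte response was -0.89 (standard error 0.12, adjusted p = 0.00106 from edgeR) and the microglia response 0.28 (standard error 0.14, adjusted p = 0.318). The difference was 1.15 (standard error 0.18, adjusted p = 0.00368). In each mouse the microglia value minus the astrocyte value, in log2 CPM, ran from -0.93 to 0.04 in control and from 0.16 to 1.16 in CIE mice, with no overlap. Its level in control microglia was 0.74 of that in control astrocytes.

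The within-mouse values did not overlap between control and CIE mice for 7 of the 44 genes, against 14 of all 12775 genes (0.11%). Besides Mmp14 these were Sned1, Ddit4, Sepp1, Abcg1, Brk1 and Adam15. The 7 are among the 14, and the 44 were chosen by a test of the same contrast in the same libraries. This count is therefore a description with no test.

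**Figure D3:**
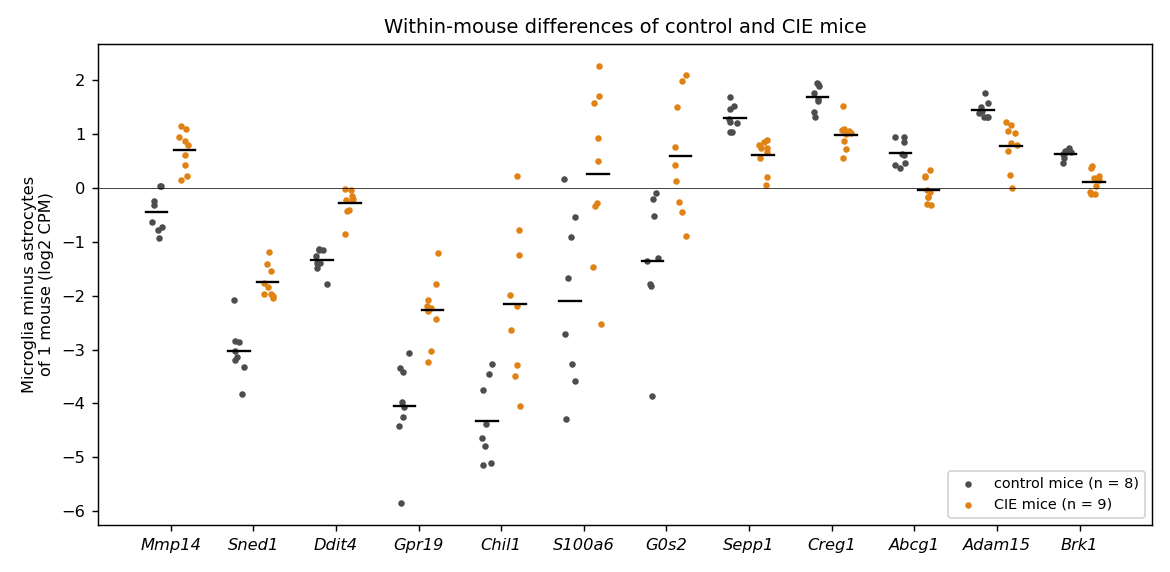
Microglia minus astrocyte log2 CPM of each mouse (y axis) for 12 called genes, with control mice in grey (n = 8), CIE mice in orange (n = 9) and a bar at each mean. Control and CIE mice separate without overlap for Mmp14, Sned1, Ddit4, Sepp1, Abcg1, Adam15 and Brk1 and overlap for the other genes.

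Ddit4, which encodes an inhibitor of the growth kinase mTORC1 and is induced by glucocorticoids and low oxygen, rose in both cell types and more in microglia. In microglia it went from 31.9 to 52.7 CPM (median 39.9) in control mice to 77.5 to 214.9 (median 137.1) in CIE mice. In astrocytes it went from 84.2 to 142.9 (median 97.2) to 119.5 to 217.6 (median 160.3). The microglia groups did not overlap and the astrocyte groups did, and CIE microglia lay around and above the levels of control astrocytes. The responses were 1.78 (standard error 0.19, adjusted p = 8.78e-05 from edgeR) in microglia and 0.67 (standard error 0.15, adjusted p = 0.0130) in astrocytes, with a difference of 1.10 (standard error 0.24, adjusted p = 0.0368). The difference passed in 6 of 17 fits without 1 mouse, where its value stayed between 1.03 and 1.19, and missed most widely without mouse 36 (adjusted p = 0.0907).

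Mxd1, which pairs with Max and represses targets of Myc, rose in microglia alone of the groups tested. Microglia had 38.2 to 54.0 CPM (median 46.2) in control and 62.2 to 192.3 (median 85.4) in CIE mice, without overlap, and astrocytes had medians of 39.9 and 40.7. The responses were 1.08 (standard error 0.19, adjusted p = 0.003997 from edgeR) and 0.01 (standard error 0.08, adjusted p = 0.944), and the difference was 1.06 (adjusted p = 0.0205). It is the only gene above 0 with a higher level in control microglia than in control astrocytes. With the neutrophil marker level as a covariate the difference was 0.52. Ankrd28, a subunit of protein phosphatase 6, had the same pattern from a lower level: microglia medians were 31.6 and 57.5 CPM, astrocyte medians 169.2 and 168.6, and the difference 0.75 (adjusted p = 0.0320).

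**Figure D4:**
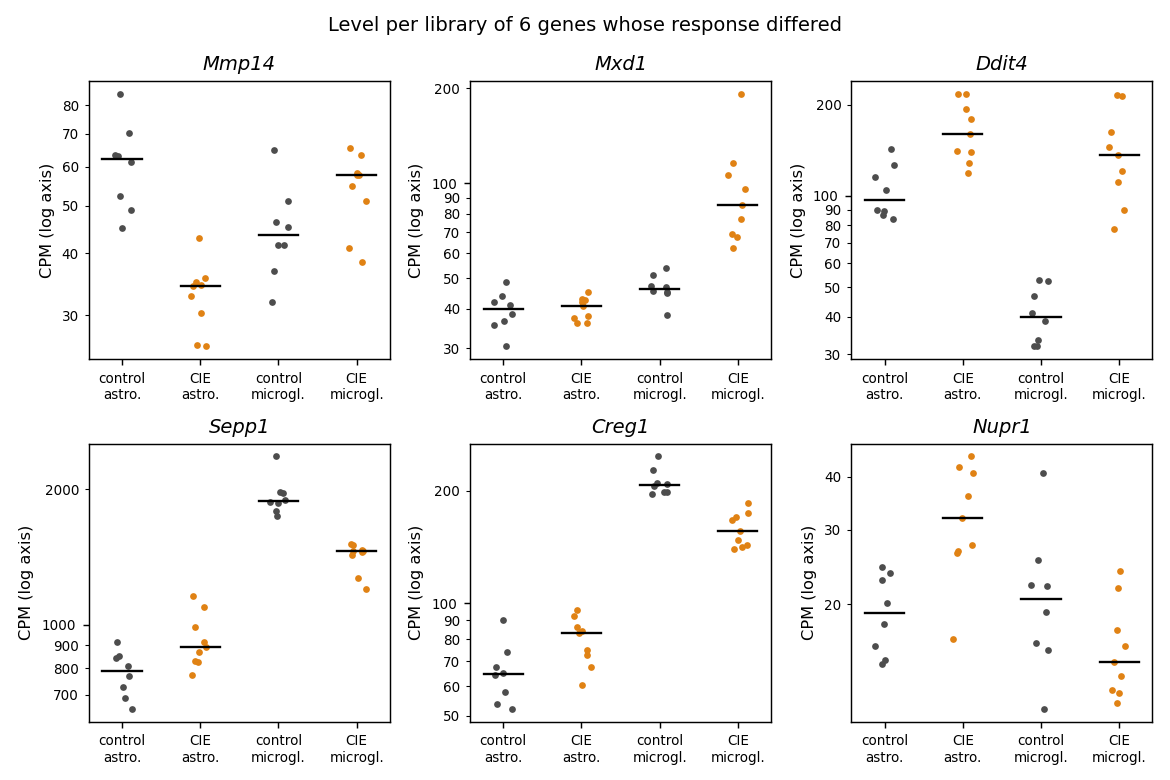
CPM in each library (log axis) of 6 called genes in control and CIE astrocytes and in control and CIE microglia, with a bar at each median. CIE lowers Mmp14 in astrocytes, raises Mxd1 in microglia and Ddit4 in both, lowers Sepp1 and Creg1 in microglia, and Nupr1 is higher in CIE than in control astrocytes.

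The 250 bases before the start of 3 of these genes are given here from RefSeq (GRCm38.p6), as the stretch next to the start of a gene that fell in astrocytes, of a gene that rose in both cell types and of a gene that fell in microglia. Capitals mark the letters GGGCGG (GC box, on either strand). Mmp14 lies at chr14:54431348-54431597 on the plus strand, Ddit4 at chr10:59951771-59952020 on the minus strand and Creg1 at chr1:165763508-165763757 on the plus strand, each read 5′ to 3′ along the gene.
Mmp14: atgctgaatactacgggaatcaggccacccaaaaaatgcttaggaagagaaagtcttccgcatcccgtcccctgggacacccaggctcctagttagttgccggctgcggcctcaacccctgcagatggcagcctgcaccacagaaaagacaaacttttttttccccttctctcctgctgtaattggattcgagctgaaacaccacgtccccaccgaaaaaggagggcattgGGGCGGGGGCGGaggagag
Ddit4: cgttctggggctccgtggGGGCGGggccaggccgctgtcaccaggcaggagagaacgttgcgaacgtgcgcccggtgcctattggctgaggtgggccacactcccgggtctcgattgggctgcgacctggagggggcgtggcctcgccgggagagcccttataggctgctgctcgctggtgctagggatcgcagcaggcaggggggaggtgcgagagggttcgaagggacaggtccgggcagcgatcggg
Creg1: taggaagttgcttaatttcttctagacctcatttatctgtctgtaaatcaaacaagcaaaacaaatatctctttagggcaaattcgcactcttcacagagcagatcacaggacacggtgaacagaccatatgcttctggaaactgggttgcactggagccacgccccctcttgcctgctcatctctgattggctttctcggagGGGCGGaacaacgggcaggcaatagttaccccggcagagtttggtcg
A promoter window was found for 33 of the 44 genes. GGGCGG was in 16 of 25 windows of genes above 0 and in 4 of 8 below 0, against 59.9% of windows of tested genes and 32.9% of all 27025 windows. ACANNNTGT, the letters of a pair of glucocorticoid receptor half-sites, was in 1 of 25 and 0 of 8, against 3.57% of windows of tested genes, and CACGTG, the E-box, in 3 of 25 and 1 of 8, against 8.51%. These shares are descriptions of letters and lie near the background.

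Genes of the matrix and of cell surface proteolysis, grouped after their values were seen, stood on both sides. Sned1, a secreted matrix protein, went from 3.24 to 11.9 CPM (median 8.34) in control to 12.1 to 27.4 (median 17.7) in CIE microglia, with no overlap, while astrocyte medians were 70.6 and 64.7. Its difference was 1.23 (standard error 0.27, adjusted p = 0.0368 from edgeR). The unadjusted exact permutation p of 4.11e-05 is the smallest the splits can give, and it did not pass after adjustment over all genes. The collagen Col11a2 fell in astrocytes from a median of 199.2 to 118.2 CPM (response -0.79, adjusted p = 0.0214) and had medians of 19.8 and 23.7 CPM in microglia. Its difference was 1.16 (standard error 0.25, adjusted p = 0.0368). The collagen Col9a3 rose in microglia from a median of 6.68 to 9.87 CPM (response 0.77, adjusted p = 0.0310), with a difference of 1.04 (adjusted p = 0.0205). Control microglia held 0.10 of the astrocyte level of both collagens and 0.12 of that of Sned1. Over the 17 fits without 1 mouse, Sned1 passed in 7, Col11a2 in 6 and Col9a3 in 15.

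Timp2, an inhibitor of metalloproteinases, fell in microglia. It went from 468.8 to 662.3 CPM (median 499.4) in control to 286.0 to 443.7 (median 365.1) in CIE microglia, with no overlap, and stayed near 222.0 and 236.1 in astrocytes. The difference was -0.62 (standard error 0.14, adjusted p = 0.0402 from edgeR). Adam15, a surface metalloproteinase, rose in astrocytes from a median of 166.8 to 213.2 CPM (response 0.57, adjusted p = 0.0202) and had medians of 445.3 and 430.7 in microglia. Its difference of -0.71 (adjusted p = 0.0402) missed the threshold with the mouse as a block (adjusted p = 0.0772). Adam19, of the same family, went the other way, with astrocyte medians of 30.7 and 20.4 CPM, microglia medians of 9.49 and 13.95 and a difference of 1.47 (adjusted p = 0.0452). Over the 17 fits without 1 mouse, Timp2, Adam15 and Adam19 each passed in 3.

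Sepp1 (Selenop), the secreted carrier of selenium, had 1741 to 2365 CPM (median 1885) in control and 1202 to 1508 (median 1457) in CIE microglia. No CIE library reached the lowest control. In astrocytes it had medians of 789.2 and 894.0. The microglia response was -0.44 (standard error 0.09, adjusted p = 0.0116 from edgeR) and the difference -0.70 (standard error 0.13, adjusted p = 0.0205). With the mouse as a block the difference was -0.69 (adjusted p = 0.0605). By exact permutation its unadjusted p was 4.11e-05, and no gene passed that test after adjustment.

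Creg1, a secreted glycoprotein of the endosome and lysosome, had 196.3 to 246.8 CPM (median 207.5) in control and 139.8 to 184.7 (median 155.9) in CIE microglia, again without overlap. In astrocytes it had medians of 64.7 and 83.3, with overlap. The difference was -0.69 (standard error 0.14, adjusted p = 0.0205 from edgeR) and passed in 13 of 17 fits without 1 mouse. Abcg1, which exports cholesterol to lipoproteins, had medians of 289.1 and 229.2 CPM in control and CIE microglia and of 190.4 and 231.1 in astrocytes. Neither response passed on its own (-0.41, adjusted p = 0.0521, and 0.28, adjusted p = 0.0872), but the difference of -0.70 did (standard error 0.15, adjusted p = 0.0368). That difference passed in 4 of 17 fits without 1 mouse.

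The other lower genes were Tmem176a, a membrane protein of antigen-presenting cells, Brk1, a subunit of the WAVE actin regulator, Tmem50a, Tmem52, Fam3a and Nupr1. Nupr1, a stress-induced regulator of transcription, rose in astrocytes from a median of 19.03 to 31.9 CPM (response 0.76, adjusted p = 0.0153 from edgeR), and had medians of 20.6 and 14.6 in microglia. Its difference was -1.17 (standard error 0.27, adjusted p = 0.0436). Tmem176a fell in microglia from a median of 69.1 to 44.5 CPM (response -0.66, adjusted p = 0.0169), with a difference of -0.80 (adjusted p = 0.0368). Tmem52 had the most negative difference of the 44, -1.82, at medians of 7.31 and 4.95 CPM in microglia and 1.65 and 3.60 in astrocytes, and missed the threshold under the block (adjusted p = 0.0605). Brk1 (-0.51) and Tmem50a (-0.62) passed under the block too, and Fam3a (-0.56) did not (adjusted p = 0.0957). Over the 17 fits without 1 mouse, Nupr1 passed in 4, Tmem176a and Tmem52 in 5, Brk1 and Fam3a in 3 and Tmem50a in 2.

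Among the genes above 0, Chil1, S100a6, G0s2, Ccdc88c and Glipr2 had differences of 1.72 to 3.34, and each had its highest CIE microglia value in mouse 41. Chil1, a chitinase-like secreted protein, had 0.741 to 3.08 CPM (median 1.06) in control and 1.65 to 44.8 (median 5.10) in CIE microglia, and 36.6 and 26.1 as astrocyte medians. Its difference of 3.34 (standard error 0.66, adjusted p = 0.0205 from edgeR) was 0.84 with the neutrophil marker level as a covariate. Its control microglia libraries held 1 to 7 reads of Chil1, which was not tested in microglia alone. S100a6, a calcium-binding protein, had microglia medians of 1.82 and 7.97 CPM with a highest value of 43.4, and its difference of 2.72 became 0.90 with that covariate. G0s2, an inhibitor of the triglyceride lipase of fat droplets, had microglia medians of 3.66 and 9.90 with a highest value of 50.5, and its difference of 2.12 became 0.76. For Ccdc88c, a scaffold of Wnt signalling, the difference of 1.99 became 0.65, and for Glipr2 that of 1.72 became 0.80. Over the 17 fits without 1 mouse the differences stayed at 2.40 to 3.59 for Chil1, 2.28 to 2.99 for S100a6, 1.69 to 2.33 for G0s2, 1.32 to 2.16 for Ccdc88c and 1.43 to 1.86 for Glipr2.

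Neutrophil markers summed to 578 to 1207 CPM (median 948) in control and 795 to 9496 (median 1070) in CIE microglia, and to medians of 118 and 122 in astrocytes. The highest value was in mouse 41. On their own, 10 of the 12 tested neutrophil markers were called higher in CIE microglia and 0 in CIE astrocytes, at median responses of 3.03 in microglia and 3.36 in astrocytes. The change of the within-mouse difference of this sum was 0.43 on the log2 scale (exact permutation p = 0.280). In microglia the log2 sum changed by 0.77 (exact permutation p = 0.0701), less than the median response of its members. A sum follows its members of highest level most. All 5 genes missed the threshold with the mouse as a block, at adjusted p = 0.0547 for Chil1, 0.110 for S100a6, 0.0768 for G0s2, 0.0768 for Ccdc88c and 0.114 for Glipr2. The part of neutrophil RNA in their differences was not tested beyond this covariate.

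Gpr19, Vldlr, Slc1a4, Sema4a and Gramd3 were above 0 and had a level in control microglia of 0.05 to 0.19 of that in control astrocytes. Gpr19, an orphan G protein-coupled receptor, had 23.02 to 37.2 CPM (median 26.2) in control and 12.4 to 26.4 (median 18.0) in CIE astrocytes. In microglia it had 0 to 2.34 CPM (median 1.4996) in control and 1.77 to 5.10 (median 3.60) in CIE mice. Its difference was 1.81 (standard error 0.32, adjusted p = 0.0148 from edgeR), and it missed the threshold without mouse 05. Control microglia libraries held 0 to 11 reads of Gpr19 and CIE microglia libraries 1 to 19, and it was not tested in microglia alone. Its level in control microglia was 0.05 of that in control astrocytes, within the range of the astrocyte markers, which was 0.01 to 0.08. The levels of Psd2, Chil1, Slc1a4, Aqp9, 2900092D14Rik and Ezr also lay within that range. Vldlr, a receptor for reelin and lipoproteins, rose in microglia from a median of 14.2 to 34.4 CPM (response 1.18, adjusted p = 0.0172) and had medians of 145.1 and 125.4 in astrocytes. With the oligodendrocyte marker level as a covariate its difference of 1.28 became 0.58.

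Slc1a4, a transporter of serine and other neutral amino acids, fell in astrocytes from a median of 334.1 to 223.3 CPM (response -0.52, adjusted p = 0.0115 from edgeR). Microglia held medians of 13.5 and 22.1 CPM, and the difference of 1.10 (adjusted p = 0.0368) became 0.62 with the oligodendrocyte covariate. Sema4a, a semaphorin that signals to T cells and to oligodendrocytes, fell in astrocytes from a median of 105.6 to 64.7 CPM (response -0.60, adjusted p = 0.0142) and had medians of 20.4 and 30.5 in microglia. Its difference of 1.39 (adjusted p = 0.0205) became 0.77 with the neutrophil marker level as a covariate. Among the 4 mice numbered 03 to 08 the difference of Sema4a was absent, at -0.03. Gramd3, with a lipid-binding GRAM domain, fell in astrocytes from a median of 90.2 to 73.2 CPM (response -0.39, adjusted p = 0.0294), with microglia medians of 7.68 and 12.4 and a difference of 1.02 (adjusted p = 0.0205). The part of carried-over RNA in these differences was not tested beyond the covariates.

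The remaining genes above 0 were, with their differences, the retinoic acid receptor Rara (1.22), the transcription regulators Trps1 (0.93), Foxn2 (0.81), Rcor2, Zfp799 (0.78) and Zfp334 (0.69), the Arf6 exchange factor Psd2 (1.48), the ubiquitin ligase Rnf144a (1.35), the water and glycerol channel Aqp9, the mitochondrial carrier Slc25a27 (1.01) and reductase Fdxr (0.81), the actin-membrane linker Ezr (1.09), Ildr2 (1.06) and the transcripts Zfhx2os (1.61) and 2900092D14Rik (1.10). Rara had microglia medians of 6.55 and 12.6 CPM and astrocyte medians of 13.4 and 10.99. With the mouse as a block 11 of these 15 genes missed the threshold, at adjusted p = 0.0540 for Zfp799, 0.0605 for Rnf144a, 0.0618 for Slc25a27, 0.0620 for each of Ezr and Rcor2, 0.0627 for Aqp9, 0.0674 for Psd2, 0.0997 for 2900092D14Rik, 0.114 for Zfp334, 0.127 for Foxn2 and 0.145 for Fdxr. Of these, Aqp9, Rcor2, Zfhx2os and 2900092D14Rik passed the filter through astrocytes only. Aqp9 had 0 to 3 reads in control microglia, at 0 in 5 of 8 libraries, and 0 to 12 in CIE microglia, and Rcor2 had 0 to 4 and 1 to 11, so no size is given for them. Aqp9 and Slc25a27 had differences below 0 among mice 03 to 08, at -0.36 for Slc25a27. With the neutrophil marker level as a covariate the differences of Rara, Ezr, Rnf144a and Fdxr became 0.75, 0.62, 0.83 and 0.57. Those of Trps1, Foxn2, Zfp334, Psd2, Ildr2, Zfhx2os and 2900092D14Rik became larger. Zfhx2os is antisense to another gene, and the strand setting of the counting is not given in the sources used here, so reads of both strands cannot be told apart.

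The block fit also passed 14 genes that the fit without it did not. Among them were 3 MHC class II genes, which present antigen to T cells and rose more in astrocytes on the log2 scale. H2-Eb1 had 2.62 to 8.53 CPM (median 3.48) in control and 6.56 to 91.6 (median 22.2) in CIE astrocytes. In microglia it had 38.9 to 106.6 (median 55.8) and 40.8 to 244.0 (median 87.7). In CPM its median rose more in microglia, from the higher level. The response was 2.88 (adjusted p = 0.00628 from edgeR) in astrocytes and 0.93 (adjusted p = 0.115) in microglia. The difference was -1.98 (adjusted p = 0.178) without and -1.72 (adjusted p = 0.00474) with the block, and the within-mouse values, 3.47 to 4.17 in control and 1.26 to 2.95 in CIE mice, did not overlap. H2-Ab1 (-1.71, adjusted p = 0.294 without and 0.0272 with the block) and H2-Aa (-1.81, 0.263 and 0.0351) followed. All 10 tested class II genes lay below 0, with a median difference of -0.95, and 0 passed without the block. The part of RNA carried over from microglia in these astrocyte values was not tested.

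Hes5, a target of Notch signalling, was at 16.7 to 66.0 CPM (median 46.0) in control and 1.77 to 23.1 (median 5.70) in CIE astrocytes. Microglia libraries held 0 to 2.96 CPM of Hes5 (median 0.988) in control and 0 to 4.62 (median 1.13) in CIE mice. Hes5 passed the filter on low counts through astrocytes only. The size of its difference therefore rests on few microglia counts. That difference was 3.14 (adjusted p = 0.121 from edgeR) without and 3.13 (adjusted p = 0.0275) with the block. Tsc22d3, a glucocorticoid-induced regulator of immune genes, rose in astrocytes from a median of 244.9 to 501.9 CPM (response 0.93, adjusted p = 0.0112), and had medians of 399.8 and 447.3 in microglia. Its difference was -0.79 (adjusted p = 0.177) without and -0.82 (adjusted p = 0.0371) with the block. Sgk1, a kinase induced by glucocorticoids, had the same shape, with astrocyte medians of 479.0 and 1382 CPM, microglia medians of 880.0 and 959.5 and a difference of -1.14 (adjusted p = 0.0780), which did not pass in either fit.

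Lists of genes by function are read against all 12775 genes tested, of which 6473 (50.7%) had a difference above 0 and the median was 0.00. Of 34 glucocorticoid-responsive genes, 15 lay above 0 (median -0.07) and Ddit4 was called. In the separate fits 8 of them rose in microglia and 13 in astrocytes. Over all genes, 249 of 10761 (2.31%) rose and 124 (1.15%) fell in microglia, and 375 of 12878 (2.91%) rose and 286 (2.22%) fell in astrocytes, and the counts of rises and falls in the lists are read against these shares. Of 49 type I interferon-stimulated genes, 23 rose in microglia and 16 in astrocytes, with medians of 0.68 and 0.51, and 0 differed between the cell types (29 above 0, median difference 0.11). Of 18 interferon-inducible GTPases 7 rose in each cell type, with medians of 0.94 and 1.02, and 0 differed. A difference that misses the threshold does not show that the responses were equal.

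Of 39 homeostatic microglia genes, 1 lay above 0 and the median difference was -0.41, with 0 called and 5 lower in microglia on their own. Sparc, a matrix protein that microglia express, had 2374 to 3392 CPM (median 2546) in control and 1088 to 2220 (median 1895) in CIE microglia, without overlap, and a difference of -0.76 (adjusted p = 0.0830 from edgeR). Trem2, a lipid-sensing receptor of microglia, had 529.8 to 883.6 (median 564.2) and 287.5 to 469.8 (median 427.2) CPM in control and CIE microglia, a response of -0.55 (adjusted p = 0.0139) and a difference of -0.52 (adjusted p = 0.510). For Cx3cr1, the fractalkine receptor, and P2ry12, the purine receptor of microglial processes, the differences were -0.42 (adjusted p = 0.646) and -0.34 (adjusted p = 0.748). Cx3cr1 and P2ry12 are themselves among the microglia markers above, so their direction is not separate from that of the markers.

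Of 33 genes of astrocyte transport and channels, 29 lay above 0 (median difference 0.46) and 0 were called. Slc1a3, the glutamate transporter, had a difference of 0.41 (adjusted p = 0.436 from edgeR). Mfge8, a secreted protein that tags debris for uptake, fell in astrocytes from a median of 1331 to 849.6 CPM (response -0.71, adjusted p = 0.0180) and had medians of 72.2 and 72.4 in microglia, but its difference of 0.74 did not pass (adjusted p = 0.311). Of 29 genes of cholesterol and fatty acid synthesis 26 lay above 0 (median 0.31), with 0 called. Of 40 genes of Notch and Wnt signalling 30 lay above 0 (median 0.18), with 0 called, and 9 fell in astrocytes on their own and 0 in microglia.

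Of 77 cytosolic ribosomal protein genes, 2 lay above 0 (median -0.30), and of 26 genes of endoplasmic reticulum stress also 2 (median -0.27), with 0 called in each. Of 34 chaperones, 7 lay above 0 (median -0.12), while 12 fell in microglia and 10 in astrocytes. Of 73 respiratory chain genes, 27 lay above 0 (median -0.04), and of 36 genes of TGF beta and BMP signalling 16 (median -0.05). Of 34 disease-associated microglia genes 6 lay above 0 (median -0.35), and Timp2 was called.

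**Figure D5:**
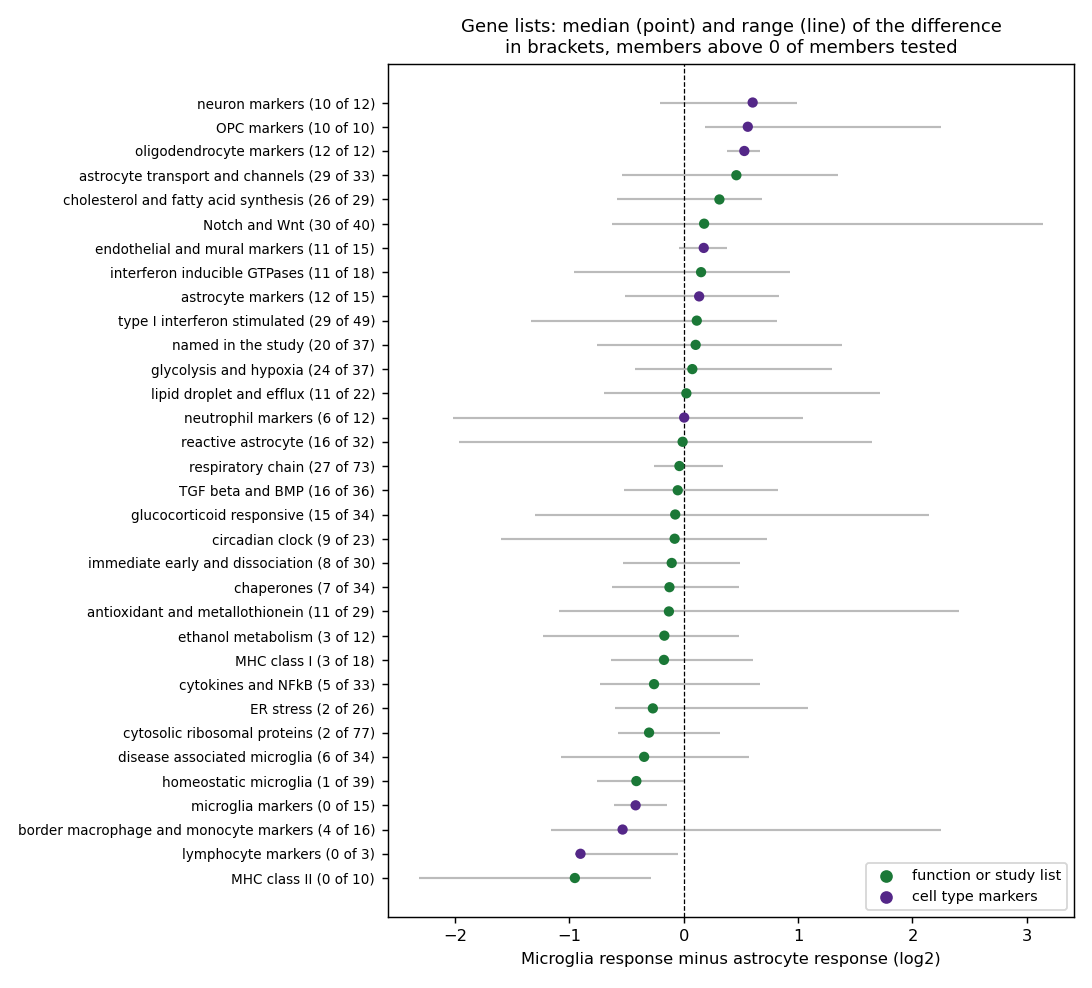
Median (point) and range (line) of the difference of responses (microglia minus astrocytes, log2, x axis) for each gene list, with the number of members above 0 of those tested in brackets; green marks function or study lists, purple cell type markers and the dashed line the median of all genes tested. MHC class II genes have the lowest median (-0.95), and neuron (0.60) and oligodendrocyte precursor markers (0.56) the highest.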

How the data were processed

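The files hold whole counts per gene symbol as deposited by the authors, whose notes name bcl2fastq 2.17, Cutadapt 1.8 for trimming, STAR 2.5.0a for mapping to mm10, Picard 1.141 for duplicates and HTSeq 0.6.1p1 for counting. The annotation release is not given in the sources used here. The 5 rows per file that name no gene were left out of library sizes and tests, and 1 of them gives the share of reads outside genes.

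The 34 glial libraries were fitted in 1 model of 4 group means with edgeR 4.0.16 in R 4.3.3 (filterByExpr, TMM, quasi-likelihood test), with DESeq2 1.42.0 and limma 3.58.1 as alternatives. The standard error is the size of the log2 value over the square root of F, and log2 CPM used a prior count of 2. Exact permutation tests were two-sided. Same-numbered libraries come from the same mouse, and their deviations from the group means correlated at -0.25 to 0.43 (median 0.14), over 0.1 in 9 of 17 mice. Members and lists were chosen with earlier results of these data known. Named are the called genes, up to 3 members per list by p, and genes of the study. Covariates other than the neutrophil markers were chosen after seeing the data.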

Additional observations from a re-analysis of the deposited data

Results flagged for a closer look

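The response to CIE differed between microglia and astrocytes for 44 genes by the test of the difference itself. In 9 of 88 groups of within-mouse values of these genes 1 mouse stood apart by Dixon's criterion, which chance alone meets in about 1 of 20 groups. CIE mouse 08 was lowest for Ddit4 (-0.85, the next value being -0.42), Fdxr (-1.51) and Gramd3 (-3.32), nearer to the control mice. Control mouse 05 was lowest for G0s2 (-3.86), Ildr2 (-1.88) and Psd2 (-8.42, with a microglia count of 0 CPM), and control mouse 22 for Slc25a27 (-3.46) and Zfp334 (-2.59). CIE mouse 06 was highest for Tmem176a (0.70).

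Marker sums stood apart in 6 of 36 groups. CIE microglia of mouse 41 had 9496 CPM of neutrophil markers (next 2768) and 90.1 CPM of lymphocyte markers. CIE microglia of mouse 23, the shallowest library, had 1976 CPM of astrocyte markers and 1792 CPM of neuron markers. Control microglia of mouse 22 had 43884 CPM of microglia markers, and CIE astrocytes of mouse 06 had 627 CPM of neuron markers.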

How the results depend on the processing

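In every alternative fit over the whole table each of the 44 genes that was tested had the sign reported. Within mice 03 to 08 alone, Sema4a (-0.03), Aqp9 (-0.54) and Slc25a27 (-0.36) had the other sign, and 41 of the 44 kept theirs in all 3 ranges of mouse numbers. The number called moved more. DESeq2 called 181 genes (139 above 0 and 42 below), limma with voom and library quality weights 151 (105 and 46), and the exact permutation test 0 (0 and 0). Without an expression filter 11 passed (9 and 2), and with all 51 libraries 76 (59 and 17). With covariates for the 3 ranges of mouse numbers (under 10, 19 to 26, over 30) 130 passed (98 and 32), and without the 4 mice numbered under 10 it was 93 (72 and 21). With covariates by cell type, the neutrophil markers left 1 (1 and 0), the oligodendrocyte markers 0 (0 and 0), the astrocyte markers 22 (19 and 3), the precursor markers 13 (12 and 1) and the share of reads outside genes 74 (65 and 9). The causes were not tested. Leaving out 1 mouse gave 1 to 108 genes, 1 to 84 above 0 and 0 to 24 below. The replicate block gave 38 (25 and 13), RLE scaling 48 (39 and 9, 42 genes shared) and genes that passed the filter in both cell types 37 (27 and 10).

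With the precursor markers as a covariate the differences of Cx3cr1 and P2ry12, which were not called, became 0.056 and 0.17. Among mice 03 to 08 the microglia responses of Slc25a27 (-0.19) and Zfp799 (-0.14) were below 0, against 0.93 and 0.70 over all mice, and so were those of Sema4a (-0.19) and Aqp9 (-1.23), neither called in microglia alone. Microglia libraries were shallower than astrocyte libraries, which limits genes of a few CPM, and all intervals rest on 8 control and 9 CIE mice.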
